A study of Mus musculus with 6 samples.

Results

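The subunits of the Mediator complex were examined in hematopoietic stem cells (HSCs) labelled as WT or as *Med23*-deficient. Members were the genes listed under 33 Mediator subunit symbols in the count and FPKM tables, of 34745 genes in all. Each of the 33 was present in the tables, and all 33 passed the filter on low counts, as did 12513 genes of the whole series. They were divided into 11 head, 9 middle, 5 tail and 7 kinase module genes and the scaffold gene *Med14*.

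RNA-seq had been carried out on bone marrow HSCs of adult C57BL/6 mice, sorted as lineage-negative, Sca1-positive and cKit-positive cells of the surface type CD150+CD34-CD48-. The 3 WT samples had the genotype Med23 flox/flox without Cre, and the 3 samples labelled *Med23*-deficient (KO) had Mx1-cre with Med23 flox/flox. Every sample thus carried the floxed alleles. The Mx1 promoter drives Cre in cells that respond to interferon, which is not limited to HSCs, and the methods describe deletion with poly(I:C), an inducer of interferon. Whether the WT mice of these libraries were injected, the age of the mice and the interval to sorting are not given in the sources used here.

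Mediator is a large assembly that carries signals from DNA-bound transcription factors to RNA polymerase II. Its head and middle modules contact the polymerase, its tail offers docking surfaces for activators, and a separable kinase module controls how the core engages the polymerase. Med23 sits in the tail beside Med16 and Med24 and is known as a contact of the ETS factor Elk1 and of C/EBP beta, while Med12 of the kinase module is known to be needed for the maintenance of HSCs.

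In the order of replicates 1, 2 and 3, which is kept below, the WT libraries held 4750410, 8131344 and 3537269 reads counted on genes. The KO libraries held 4760545, 5281232 and 5132601. Mediator genes together received 10122, 17962 and 6924 of these counts in WT and 10343, 12806 and 11642 in KO. Values below are TMM-scaled CPM, that is, counts brought to a common library size, unless another scale is named. The detection floor of 3 counts corresponds to between 0.369 and 0.848 CPM before that scaling and covers counting error only, and every member lay above it in every library. Nothing in the labels states that replicates came from separate animals, so a p-value measures the spread between these samples. Between replicates 1 and 2 of a group that spread may be technical, whereas Y-linked genes and *Xist*, given below, set replicate 3 apart. Every pair of libraries within a group differed beyond counting noise (chi-square divided by its degrees of freedom, 25.9 to 53.5).

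Replicate 3 of both groups stood apart from the other libraries. Y-linked genes together received 1 count in WT replicate 3 and 0 in KO replicate 3, against at least 1036 elsewhere, and *Xist* reached 4819 and 7853 counts there against at most 111 elsewhere. Each group thus held a single library of this kind. *Med12* and *Med14* are the X-linked members. The share of counts on *Gm26917* and *Gm42418* was 18.1% in WT replicate 3 and 12% in KO replicate 3, against 6.11 to 10.5% in the other libraries.

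The labelled cell type was checked against its markers. All 10 HSC marker genes were detected, and their summed level was 2272, 2622 and 2541 CPM in WT and 2226, 2394 and 2102 CPM in KO, with *Kit* the most abundant. These sums overlapped, but single markers moved in both directions. *Kit*, *Ly6a* and *Hlf* were lower in every KO library, where 6.15% of all genes tested were. *Mecom* was higher in every KO library, where 6.25% of all genes tested were. None of the 10 passed the adjusted threshold in edgeR. *Hlf*, with the lowest unadjusted p of these 4 at 0.0083, was counted at 208, 260 and 376 CPM in WT and 145, 157 and 178 CPM in KO. *Slamf1*, which encodes CD150, was counted at 96.8, 90.9 and 21.02 CPM in WT and at 37.3, 58.2 and 27.5 CPM in KO. *Cd48* was at 0 in WT replicate 3 and in every KO library and at 2.05 and 3.44 CPM in WT replicates 1 and 2. *Cd34* RNA was counted at 296, 360 and 343 CPM in WT and 520, 384 and 414 CPM in KO, although the gate excludes cells with the CD34 protein.

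*Med23* itself (ENSMUSG00000019984), the subunit targeted for deletion, was lower on average in KO, but its groups overlapped. The WT libraries had 47.6, 70.8 and 24.1 CPM of it and the KO libraries 31.6, 29.8 and 36.8 CPM. WT replicate 3 lay below every KO library, whereas WT replicates 1 and 2 lay above them all. The means were 47.5 ± 23.3 CPM in WT and 32.8 ± 3.63 CPM in KO (SD, n = 3 each). The log2 fold change was -0.54 (standard error 0.41, 95% interval -1.46 to 0.38), with an adjusted p of 0.99 in edgeR's quasi-likelihood test with Benjamini-Hochberg adjustment. On a linear scale the interval runs from 36.3 to 130% of the WT level. The exact two-sided permutation test of log2(CPM + 0.5) gave p = 0.5, where 0.1 is the smallest value that 3 samples against 3 allow.

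Single WT libraries decided the size of the *Med23* difference. Its log2 fold change was -0.85 without WT replicate 3, -0.13 without WT replicate 2 and -0.93 without replicate 3 of both groups. A deletion of floxed exons need not remove the rest of the transcript, and a count per gene cannot separate deleted from remaining exons. The paper reports that poly(I:C) removed *Med23* efficiently from the hematopoietic system and that the Mediator complex stayed stable without it. Whether those checks covered the mice of these libraries is not stated. Fewer cells with *Med23* RNA and less *Med23* RNA in each cell cannot be told apart in bulk samples. The library labelled WT replicate 3 goes against its label at this gene. It lay on the WT side of every KO library at *Egr1* (102 CPM, KO at most 6.48), *Hlf* (376, KO at most 178) and *Prtn3* (86.5, KO at least 304.5). The groups of each of these genes do not overlap in these same libraries. That placement was thus fixed by the choice of genes and is no check of the label. At *Slamf1* WT replicate 3 lay below every KO library (21.02 CPM, KO at least 27.5), unlike the other WT libraries. The direction of every member was also computed without WT replicate 3. It reversed in 6 of the 33, namely *Med28*, *Med30*, *Med10*, *Med12*, *Med12l* and *Med13*.

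**Figure D1:**
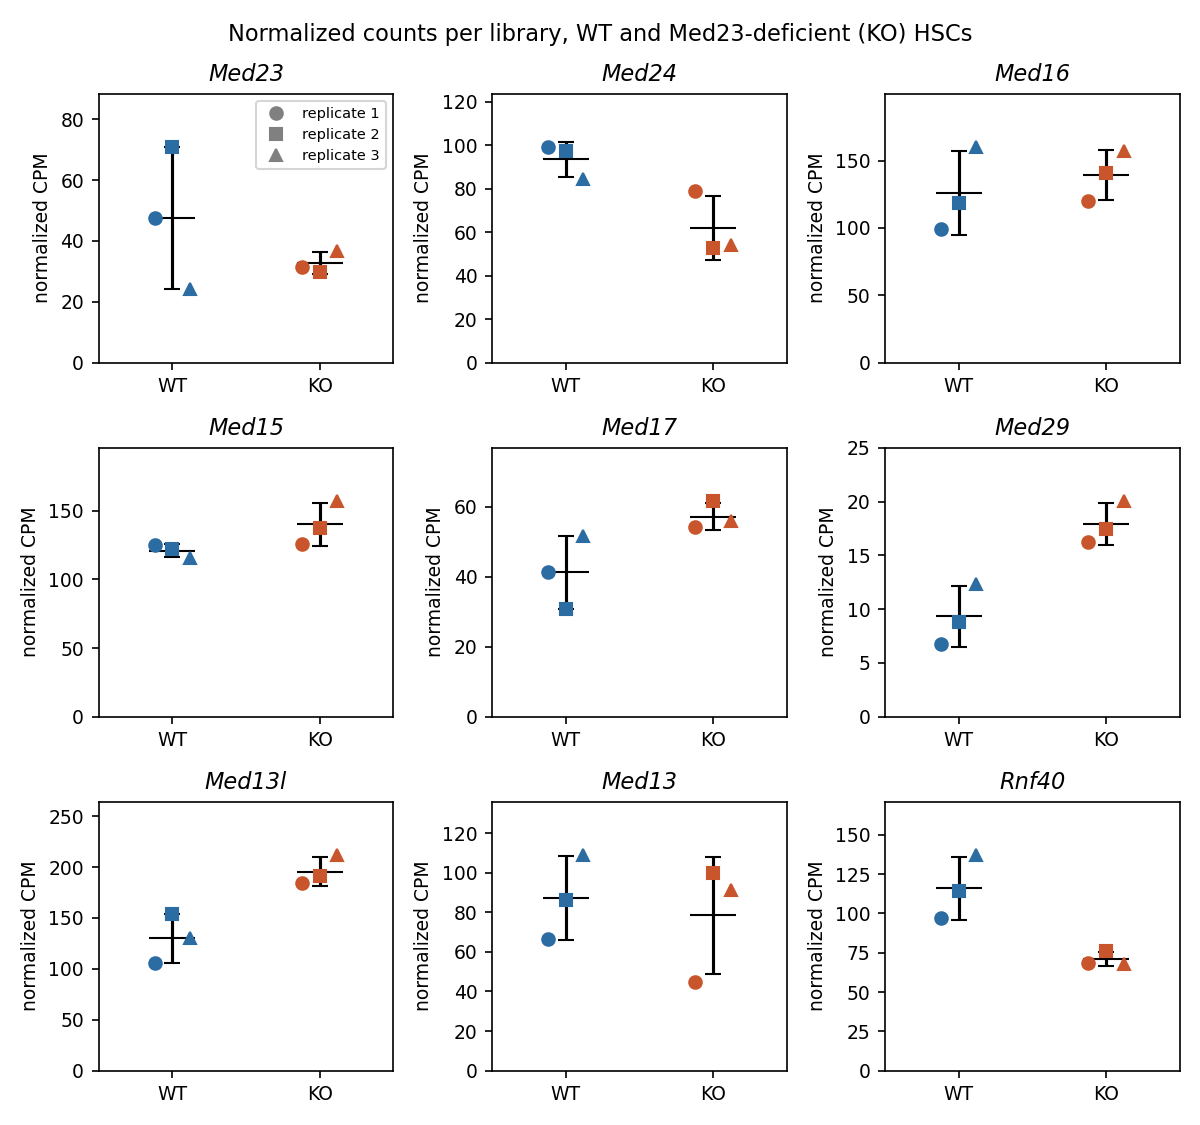
Normalized CPM on a linear axis for *Med23*, 7 other Mediator genes and *Rnf40* in each WT and KO library, with symbols for replicates 1 to 3 and bars for the mean and SD (n = 3 each). *Med23* at 24.1 CPM in WT replicate 3 lies below every KO library, whereas every KO library lies below every WT library for *Med24* and *Rnf40* and above for *Med15*, *Med17*, *Med29* and *Med13l*.

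The plot of *Med23*, its tail neighbours and the members with separated groups shows the values library by library. It also shows *Med13*, the paralog of *Med13l*, for which the groups overlap.

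No Mediator gene passed an adjusted p of 0.05 in edgeR, where 0.0719% of all genes tested (9 of 12513) passed. The lowest adjusted p in edgeR's test was 0.76, for *Med13l*, and the count was also 0 with DESeq2, with limma on FPKM and with limma voom. At an unadjusted p under 0.05, 1 of 33 members was higher in KO and 0 were lower, beside 2.94 and 2.77% of all genes tested (5.71% in either direction). That count was 2 with DESeq2 and with voom, 3 without WT replicate 3, 2 without KO replicate 1 and 0 without WT replicate 1, KO replicate 2 or KO replicate 3. Of all genes tested, 4.85 to 8.03% had such a p over the alternative settings, with 6.74% in DESeq2, 7.58% in voom, 6.92% without WT replicate 3 and 5.22% without KO replicate 1.

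In 5 members (15.2%) the groups did not overlap, beside 12.4% of all genes tested. *Med17*, *Med29*, *Med15* and *Med13l* were higher in every KO library than in any WT library, where 6.25% of all genes were, and *Med24* was lower in every KO library, where 6.15% of all genes were. These shares lie close to the background, and the 5 genes are given as a description of the libraries. With a library left out, the number of such members was 10, 8 and 11 without WT replicates 1, 2 and 3, where 23.3, 22.1 and 23.7% of all genes tested were separated. It was 7, 6 and 5 without KO replicates 1, 2 and 3, beside 21.04, 20.4 and 22.1% of all genes. *Med23* was among those below every WT library once WT replicate 3 was left out.

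Estimates were higher in KO for 22 members and lower for 11, and 18 to 26 were higher under the alternative settings. The share with a higher estimate was 49.5% over all genes tested. The median log2 fold change was 0.06 over the 33 members and -0.0054 over all genes tested. With a library left out the member median ran from 0.058 to 0.16. Members share the same 6 libraries and are not replicates of each other.

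The precision of the members sets what these data can show about a rise of other subunits in the libraries labelled KO. Standard errors on the log2 scale ran from 0.21 to 0.65 with a median of 0.34, against a median of 0.42 over all genes tested. For 18 of the 32 members other than *Med23* the 95% interval lay entirely below a doubling, as for 54.4% of all genes. For 16 of the 32 the interval lay between a halving and a doubling, as for 32.2% of all genes. A doubling was within the interval of the other 14 members, which include 10 of the 11 head genes.

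**Figure D2:**
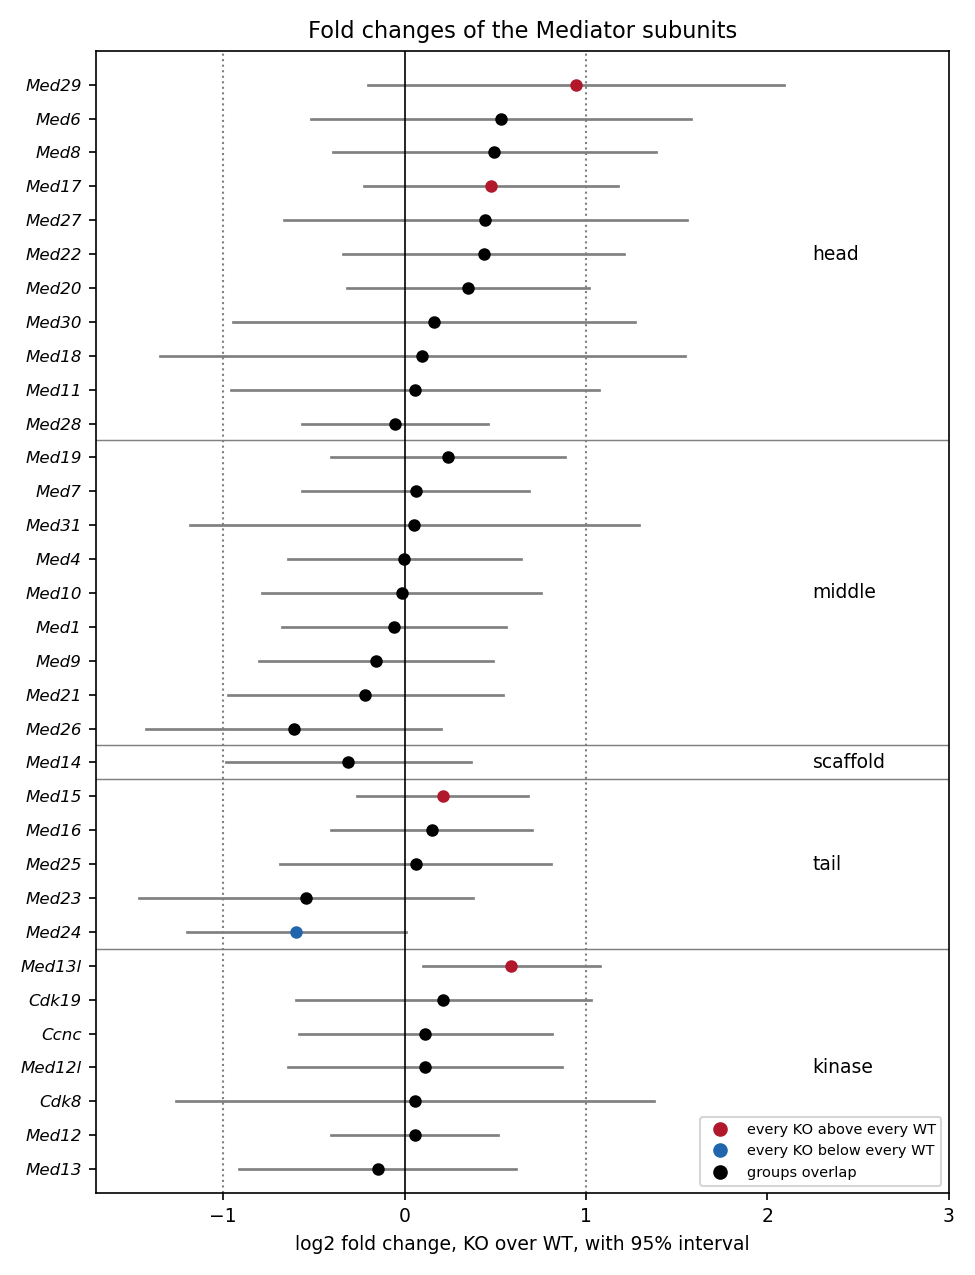
Log2 fold change of KO over WT for each Mediator gene with its 95% interval from edgeR, grouped by module; dotted lines mark a halving and a doubling, and colors mark members whose groups do not overlap. *Med29* has the highest estimate at 0.94 and *Med26* the lowest at -0.61, and the interval of *Med13l* alone lies above 0.

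**Figure D3:**
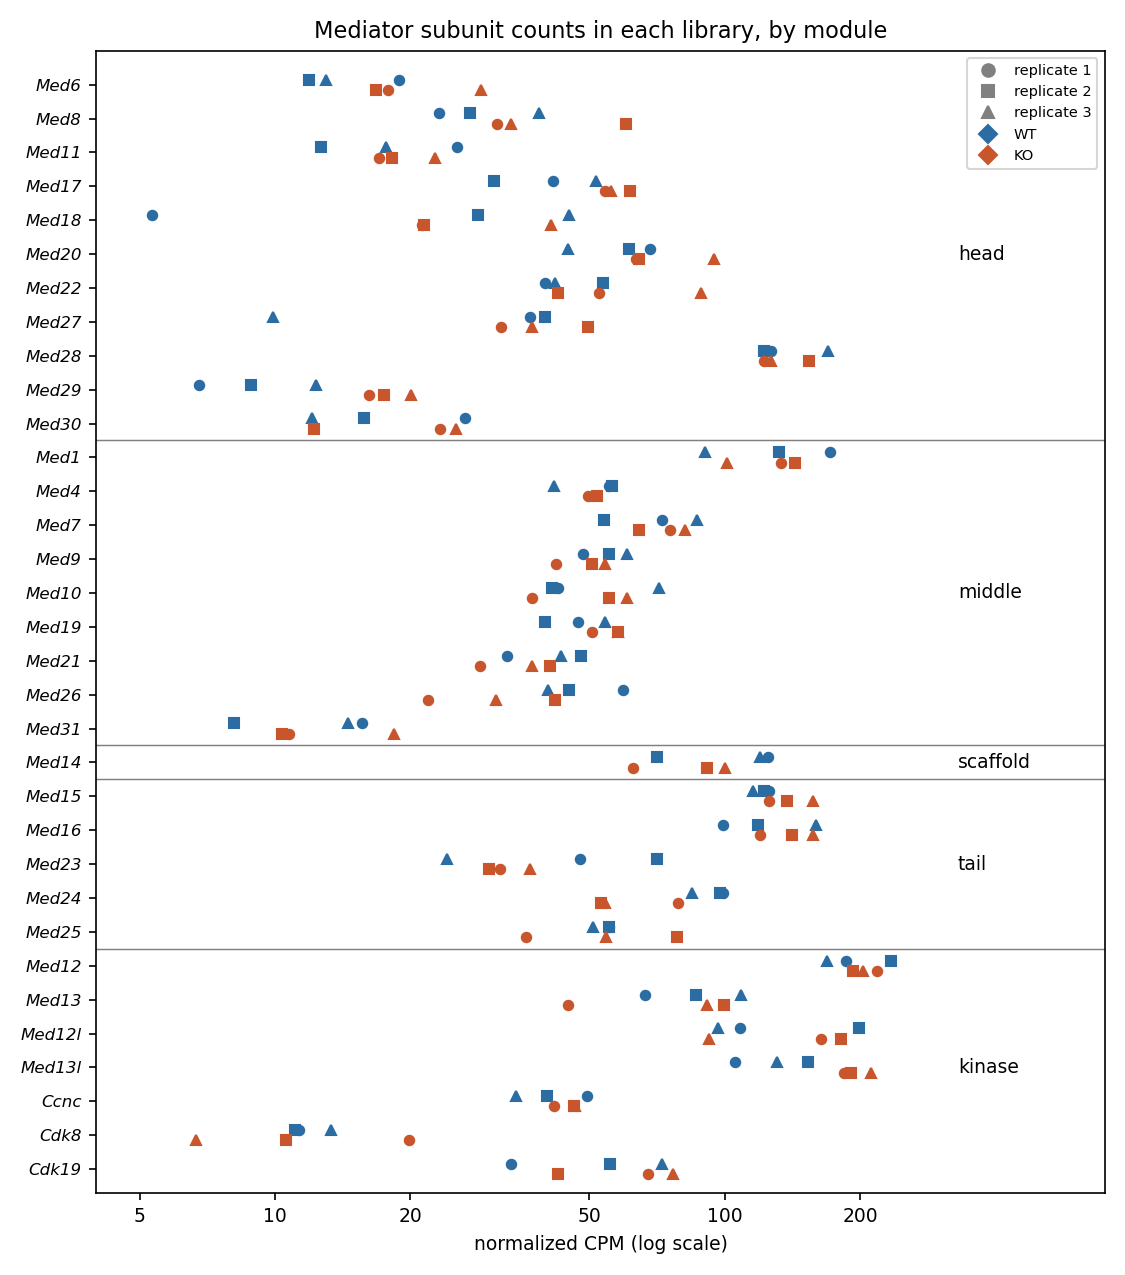
Normalized CPM of every Mediator gene in each WT (blue) and KO (orange) library on a log axis, by module, with symbols for replicates 1 to 3. WT and KO points are interleaved in most genes, and *Med18* in WT replicate 1 (5.33 CPM) and *Med27* in WT replicate 3 (9.89 CPM) lie far below the other libraries of their genes.

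The plot of fold changes and the plot of every library show the same comparison as estimates and as single values. Spread within a group can be read against that of other genes with like counts. The highest library of a group exceeded the lowest by a median factor of 1.61 in WT and 1.49 in KO over the members, against 1.77 and 1.63 over 8886 genes with total counts in the same range. *Med18* had the widest WT range, 8.46-fold, with 5.33, 28.3 and 45.1 CPM from 26, 230 and 146 counts.

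Promoter sequence is shown for the 4 members that were higher in every KO library. RefSeq windows of 300 bases, from 250 before to 50 after the gene start on GRCm38.p6, matched 28 of the 33 members; *Med23*, *Med24*, *Med8*, *Med30* and *Cdk19* had none. The *Med13l* window is chr5:118560469-118560768 on the plus strand. The windows of *Med29* at chr7:28392641-28392940, *Med17* at chr9:15279857-15280156 and *Med15* at chr16:17722898-17723197 are on the minus strand. Each runs 5′ to 3′ along its gene, and capitals mark matches to the motifs searched.
Med13l: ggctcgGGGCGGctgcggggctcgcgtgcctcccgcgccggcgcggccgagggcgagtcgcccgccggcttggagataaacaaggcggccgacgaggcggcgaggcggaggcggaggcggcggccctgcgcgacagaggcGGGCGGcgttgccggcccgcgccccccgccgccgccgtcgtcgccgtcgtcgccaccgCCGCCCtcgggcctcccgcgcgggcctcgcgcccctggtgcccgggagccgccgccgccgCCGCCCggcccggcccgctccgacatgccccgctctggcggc
Med29: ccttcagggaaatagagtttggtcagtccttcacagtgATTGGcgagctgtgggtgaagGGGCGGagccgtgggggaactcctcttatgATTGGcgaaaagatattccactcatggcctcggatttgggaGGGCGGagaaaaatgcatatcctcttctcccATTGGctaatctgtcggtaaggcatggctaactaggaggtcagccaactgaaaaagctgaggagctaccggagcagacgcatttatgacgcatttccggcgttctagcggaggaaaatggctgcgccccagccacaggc
Med17: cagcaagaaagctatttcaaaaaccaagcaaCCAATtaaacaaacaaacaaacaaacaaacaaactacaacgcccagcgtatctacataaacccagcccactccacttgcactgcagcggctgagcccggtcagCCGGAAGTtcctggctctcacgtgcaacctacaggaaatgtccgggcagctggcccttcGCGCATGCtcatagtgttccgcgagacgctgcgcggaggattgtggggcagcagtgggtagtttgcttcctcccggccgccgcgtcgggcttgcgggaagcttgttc
Med15: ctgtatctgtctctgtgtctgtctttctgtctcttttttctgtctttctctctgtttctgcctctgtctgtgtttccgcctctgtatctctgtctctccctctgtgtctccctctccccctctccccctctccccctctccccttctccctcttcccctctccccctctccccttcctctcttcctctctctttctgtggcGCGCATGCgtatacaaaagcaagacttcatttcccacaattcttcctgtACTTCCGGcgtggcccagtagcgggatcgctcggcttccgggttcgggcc
The capitals differ between the windows. In *Med13l* they are 4 GC boxes, with first bases 244, 110 and 52 bases before the start and 8 after it. *Med29* holds 2 GC boxes and 3 CCAAT boxes. In *Med17* a CCAAT box lies 219, an ETS motif 116 and an NRF1 motif 57 bases before the start. *Med15* holds an NRF1 motif 49 bases before the start and an ETS motif whose first base is the start itself. That RefSeq start lies 9944 bases inside the *Med15* gene of GENCODE M21, so the window is not at the gene start of the models used for lengths.

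Motifs were searched on both strands as exact letters, and the letters for NRF1 and YY1 were cut to 8 after matches to longer forms had been seen, so their matches, capitals included, are descriptive. The ETS motif CCGGAAGT, the class bound by Elk1, was found in 3 of 28 member windows (10.7%: *Med15*, *Med17* and *Med18*) and in 4.0% of all 27025 windows. The GC box GGGCGG was found in 18 (64.3%) against 35.9% of all windows, and CCAAT in 11 (39.3%) against 37.9%. Both are common elements of mammalian promoters. TATAAA was found in 3 (10.7%) against 14.2% of all windows. The NRF1 motif GCGCATGC was in 3 member windows (10.7%: *Med4*, *Med15* and *Med17*) and 2.80% of all windows. The YY1 motif AAGATGGC was in 1 (3.57%, *Med31*) and 2.88% of all windows. A single pair of matches to different motifs overlapped among the member windows. The GC content of a member window was 57.8% at the median, from 39.3% in *Med16* to 84.7% in *Med13l*, against a median of 52.7% over all windows.

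In the head module, which contacts RNA polymerase II, 10 of 11 genes had a higher estimate in KO and the median log2 fold change was 0.44, but no member passed the test. *Med17*, the architectural subunit of the head, was counted at 41.4, 30.7 and 51.6 CPM in WT and 54.1, 61.5 and 55.9 CPM in KO. The lowest KO library exceeded the highest WT library by little, and the KO libraries lay closer together. Its fold change on the log2 scale was 0.47 (standard error 0.32), with an adjusted p of 0.99 in edgeR, and lay between 0.30 without WT replicate 2 and 0.70 without replicate 3 of both groups.

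*Med29* (ENSMUSG00000003444), a metazoan subunit placed here with the head, had the highest estimate of all members. It was counted at 6.77, 8.85 and 12.4 CPM in WT and at 16.2, 17.5 and 20.03 CPM in KO. Every KO library was thus above every WT library. The means were 9.33 ± 2.83 and 17.9 ± 1.95 CPM (SD, n = 3 each). On the log2 scale KO exceeded WT by 0.94 (standard error 0.52, 95% interval -0.20 to 2.09). In edgeR's test the unadjusted p was 0.096 and the adjusted p 0.94. With limma on FPKM the unadjusted p of *Med29* was 0.0063 to 0.0071 and the adjusted p at least 0.43, while *Med13l* had an unadjusted p of 0.039 to 0.061. The values of *Med29* rest on 33 to 99 counts per library. *Med29* starts 243 bases from *Paf1*, which is transcribed in the opposite direction.

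*Med8*, which anchors the Med18 and Med20 subunits to the head, was counted at 23.2, 27.2 and 38.6 CPM in WT and 31.2, 60.4 and 33.4 CPM in KO. KO replicate 2 was the high library and the other KO values lay within the WT range. Its estimate on the log2 scale was 0.49 (standard error 0.40), with an adjusted p of 0.99 in edgeR, and it ranged between 0.13 without KO replicate 2 and 0.88 without replicate 3 of both groups. Estimates of the other head genes ran from -0.05 for *Med28* to 0.53 for *Med6*, with the groups overlapping in each.

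KO replicate 3 contributed much of the head median, which was 0.14 without that library and 0.16 without replicate 3 of both groups. Without KO replicate 3 the estimates of *Med11* (-0.07), *Med18* (-0.28) and *Med30* (-0.03) also fell below 0, beside that of *Med28*. *Med22* and *Med20* had their highest values there, 88.4 and 94.5 CPM, against at most 53.6 and 68.3 CPM in any other library. Summed over the head, the counts were 419, 412 and 457 CPM in WT and 451, 519 and 574 CPM in KO, so the groups overlapped in this sum as well. With Med27 to Med30 assigned to the tail, as some structures place them, the head median was 0.44 over 7 genes and the tail median 0.15 over 9.

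Among the 9 middle genes, which link the head to the tail and form part of the polymerase contact, 3 had a higher and 6 a lower estimate. The groups overlapped in each of them in TMM-scaled CPM, while on the FPKM scale *Med19* was higher in every KO library (17.1, 14.05 and 17.4 in WT, 18.5, 21.2 and 19.6 in KO). The median log2 fold change was -0.02 and turned to 0.04 with limma on FPKM, and it was -0.15 without KO replicate 3. *Med4* was counted at 55.2, 56.0 and 41.7 CPM in WT and 49.6, 51.9 and 51.6 CPM in KO, with the KO libraries inside the WT range. Its estimate was close to 0 and its sign changed with the setting, and its interval ran from -0.64 to 0.64.

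*Med10* was counted at 42.6, 41.3 and 71.4 CPM in WT and at 37.3, 55.1 and 60.7 CPM in KO. WT replicate 3 was the highest library and KO replicate 1 the lowest. A log2 fold change of -0.02 (standard error 0.35) was estimated, and it had the opposite sign with limma on FPKM and without WT replicate 3. The merged exons of all *Med10* transcripts in GENCODE M21 span 4491 bases, and 92.8% of these overlap the antisense gene *Gm26819*. The gene length implied by the deposited FPKM was 862 bases, and the overlap within those was not computed. Whether reads of the pair were told apart is unknown, because the use of strand is not stated.

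*Med26*, the subunit that recruits the elongation factors Ell and Eaf, had the lowest estimate of all members. Its values were 59.3, 45.0 and 40.5 CPM in WT and 21.9, 41.9 and 31.0 CPM in KO. A single KO library, replicate 2, lay above the lowest WT library, and with upper-quartile scaling the groups no longer overlapped. Its estimate was -0.61 on the log2 scale (standard error 0.37), with an adjusted p of 0.97 in edgeR, and moved between -0.87 without KO replicate 2 and -0.40 without KO replicate 1. *Med26* lies outside the rule for named genes and was chosen after its values were seen. Estimates of the other middle genes lay between -0.22 for *Med21* and 0.24 for *Med19*, with *Med1*, the contact of nuclear receptors, at -0.06.

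*Med14*, the backbone that joins head, middle and tail, was counted at 125, 70.8 and 120 CPM in WT and at 62.4, 91.4 and 100 CPM in KO. The groups overlapped, with a log2 fold change of -0.31 (standard error 0.30) that ran from -0.53 without WT replicate 2 to -0.13 without KO replicate 1.

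In the tail, the activator-binding module that holds Med23, estimates lay on both sides of 0. The median log2 fold change was 0.06, and it was 0.25 without KO replicate 1 and -0.25 without KO replicate 2. *Med24* (ENSMUSG00000017210), a direct neighbour of Med23 in the tail, was counted at 99.0, 97.5 and 84.4 CPM in WT and at 78.8, 53.0 and 54.0 CPM in KO. All KO libraries lay below all WT libraries, and KO replicate 1 was the KO library closest to WT. The means were 93.6 ± 8.05 and 61.9 ± 14.6 CPM (SD, n = 3 each). The log2 fold change was -0.60 (standard error 0.27, 95% interval -1.2 to 0.0066), with an unadjusted p of 0.0521 and an adjusted p of 0.89 in edgeR. On the FPKM scale, which is not TMM-scaled, KO replicate 1 had 9.22 and WT replicate 3 had 8.70, so the groups overlapped there.

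*Med16*, the third subunit of this part of the tail, did not share that pattern. It was counted at 99.0, 119 and 160 CPM in WT and 120, 141 and 157 CPM in KO. The groups overlapped almost completely, and the log2 fold change was 0.15 (standard error 0.25, 95% interval -0.40 to 0.70), with 0.0068 found without WT replicate 1 and 0.36 without WT replicate 3. The counts of *Med24* per count of *Med16* were 1.0, 0.822 and 0.528 in WT and 0.657, 0.376 and 0.344 in KO, where WT replicate 3 lay below KO replicate 1 (exact two-sided permutation p = 0.2, n = 3 each). *Med23* per count of *Med16* was 0.480, 0.597 and 0.151 in WT and 0.264, 0.212 and 0.234 in KO. In the latter ratio WT replicate 3 was the lowest library, and the exact two-sided permutation p was 0.4 (n = 3 each). *Med23* per count of *Med24* was 0.480, 0.726 and 0.286 in WT and 0.401, 0.564 and 0.682 in KO. Its mean was higher in KO, at 0.549 against 0.497, with an exact two-sided permutation p of 0.7 (n = 3 each).

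*Med15*, a tail subunit known to bind SREBP and SMAD factors, was counted at 125.3, 122.2 and 115.6 CPM in WT and at 125.6, 137.8 and 156.8 CPM in KO. The separation of the groups rests on KO replicate 1 at 125.6 CPM lying barely above WT replicate 1 at 125.3 CPM. Its estimate on the log2 scale was 0.21 (standard error 0.21, 95% interval -0.26 to 0.68), and 0.13 without KO replicate 3 or 0.10 without replicate 3 of both groups. *Med25*, a target of viral and cellular activators, had an estimate of 0.06, with KO libraries at 36.1, 78.4 and 54.4 CPM on both sides of the WT values. That estimate was 0.30 without KO replicate 1 and -0.25 without KO replicate 2, so its direction rests on single libraries.

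The kinase module pairs a cyclin-dependent kinase, Cdk8 or Cdk19, with cyclin C, and holds Med12 or its paralog Med12l and Med13 or its paralog Med13l. In this module 6 of 7 genes had a higher estimate in KO and the median log2 fold change was 0.11, or 0.019 to 0.21 with a library left out. *Med13l* (ENSMUSG00000018076) was counted at 106, 153 and 131 CPM in WT and at 184, 191 and 211 CPM in KO. Every KO library exceeded every WT library. The means were 130 ± 24.0 and 196 ± 14.2 CPM (SD, n = 3 each). It was the member with the lowest p in edgeR, at a log2 fold change of 0.59 (standard error 0.22, 95% interval 0.10 to 1.08). Its unadjusted p in edgeR's test was 0.0226 and its adjusted p 0.76. Over the alternative settings the estimate ran from 0.46 to 0.73 and the adjusted p from 0.46 to 0.99992, so it missed the threshold in each.

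*Med13*, which tethers the kinase module to the core, did not share the pattern of its paralog. It was counted at 66.6, 86.1 and 109 CPM in WT and at 44.8, 99.7 and 91.3 CPM in KO. KO replicate 1 was the lowest library and the others overlapped. An estimate of -0.15 on the log2 scale (standard error 0.34) resulted, which was above 0 without WT replicate 3 or without KO replicate 1. Counts of *Med13l* per count of *Med13* were 1.58, 1.78 and 1.20 in WT and 4.11, 1.92 and 2.32 in KO. All KO libraries thus had the higher ratio, with means of 1.52 ± 0.295 and 2.78 ± 1.17 (SD) and an exact two-sided permutation p of 0.1 (n = 3 each), the smallest possible. KO replicate 1, with the highest ratio, also had the lowest *Med13* value. The sum of both paralogs was 172, 240 and 240 CPM in WT and 229, 291 and 303 CPM in KO, with KO replicate 1 below WT replicates 2 and 3.

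For the other paralog pairs, the groups overlapped in each gene and in each ratio. *Med12*, which activates the kinase, was counted at 186, 235 and 169 CPM in WT and 218, 193 and 203 CPM in KO. *Med12l* was counted at 108, 199 and 96.4 CPM in WT and 164, 181 and 92.3 CPM in KO, with replicate 3 the lowest library of both groups. The log2 fold changes were 0.06 (standard error 0.21) and 0.11 (standard error 0.34), and both were slightly below 0 without WT replicate 3. *Med12l* per count of *Med12* was 0.580, 0.848 and 0.570 in WT and 0.752, 0.940 and 0.454 in KO.

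*Cdk8*, the kinase that gives the module its name, received 33 to 98 counts per library. It was counted at 11.3, 11.1 and 13.3 CPM in WT and 19.9, 10.6 and 6.68 CPM in KO. WT libraries lay close together, and KO libraries spread 2.97-fold around them. The estimate was 0.06 on the log2 scale (standard error 0.59, 95% interval -1.26 to 1.38), and it was -0.46 without KO replicate 1.

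*Cdk19*, its paralog, was counted at 33.4, 55.5 and 72.6 CPM in WT and 67.7, 42.6 and 76.9 CPM in KO. Values were spread in both groups, and the log2 fold change was 0.21 (standard error 0.37). *Ccnc*, which encodes cyclin C, was counted at 49.4, 40.2 and 34.3 CPM in WT and 41.7, 46.2 and 46.3 CPM in KO. The KO libraries lay within the WT range, with a log2 fold change of 0.11 (standard error 0.31).

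Summed over all members, Mediator genes took 2075, 2207 and 2140 CPM in WT and 2095, 2331 and 2356 CPM in KO. KO replicate 1 lay below WT replicates 2 and 3, and the means were 2141 ± 66.0 and 2261 ± 144 CPM (SD, n = 3 each). Without *Med23* the sums were 2028, 2137 and 2116 CPM in WT and 2064, 2301 and 2319 CPM in KO, and the groups overlapped again. By module, the kinase genes gave 561, 781 and 625 CPM in WT and 740, 764 and 728 CPM in KO. The tail gave 426, 464 and 435 CPM in WT and 392, 440 and 459 CPM in KO. The middle gave 545, 480 and 503 CPM in WT and 450, 516 and 494 CPM in KO. In none of these sums were the groups separated.

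Levels were compared between genes per length, with the deposited FPKM. The highest WT means were 58.2 ± 15.3 for *Med10*, 38.6 ± 8.06 for *Med4* and 35.1 ± 3.49 for *Med15* (SD, n = 3 each). The lowest were 5.03 ± 1.04 for *Med8*, 4.97 ± 2.57 for *Med23* and 0.821 ± 0.0385 for *Cdk8*. The median member had 9.42 FPKM, and 25 of the 33 had WT means between 5 and 20. Of the 32 pairs of neighbours in this order, 4 did not overlap between WT libraries. These were *Med10* and *Med4*, *Med15* and *Med9*, *Med9* and *Med25*, and *Med23* and *Cdk8*, and the other neighbours cannot be ordered beyond their spread.

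**Figure D4:**
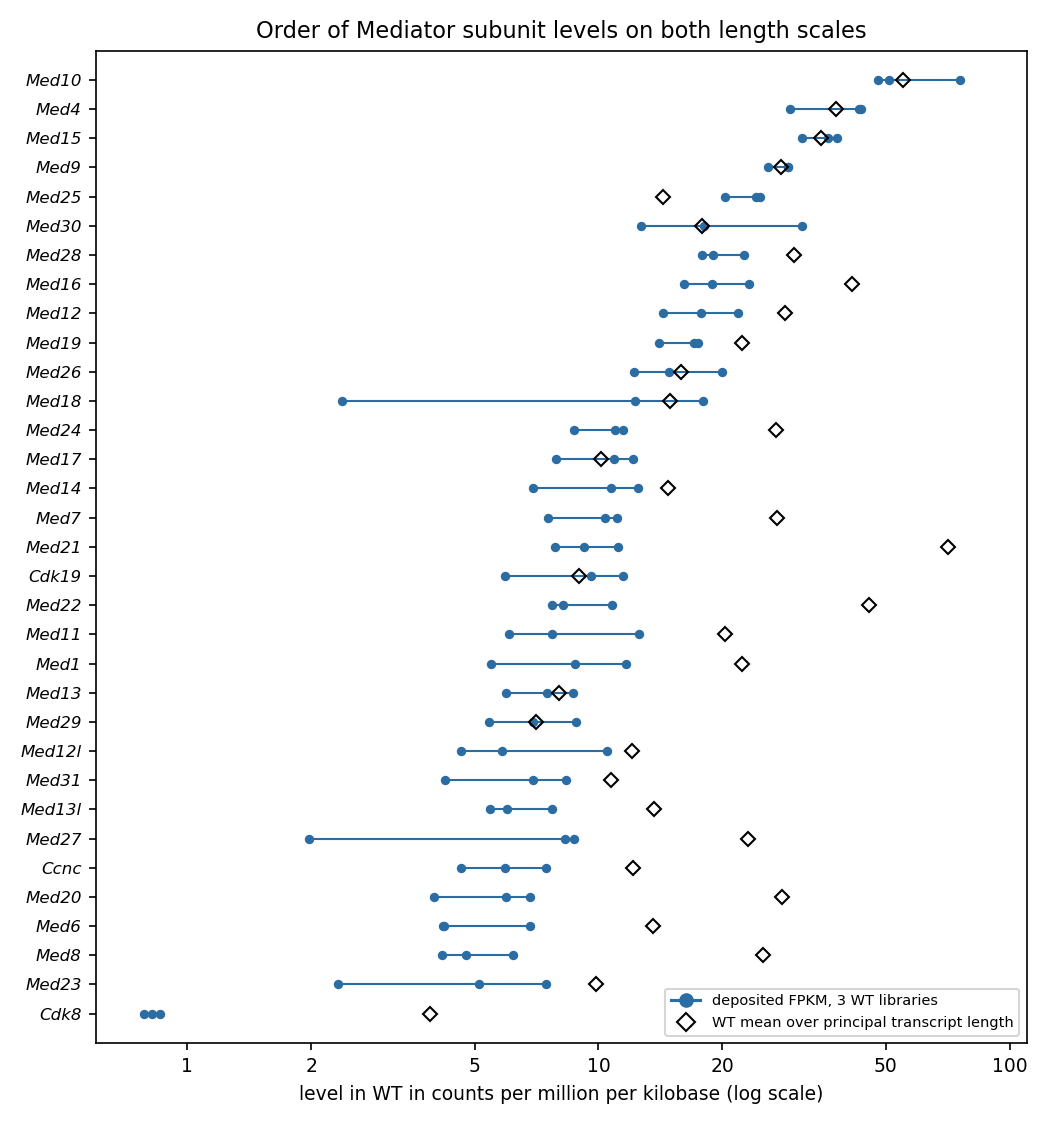
Levels of the Mediator genes in WT on a log axis, as deposited FPKM in 3 libraries (points and range) and as the WT mean recomputed with the length of the principal transcript (open diamonds), in the order of the mean FPKM. *Cdk8* is the lowest on both scales, at 0.821 and 3.90, while *Med21* moves from 9.42 to 70.6.

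The plot of levels on both length scales shows how far this order rests on the gene length behind the FPKM. For 14 of the 33 members that length was over 2 times the length of the principal transcript in GENCODE M21, up to 7.5 times for *Med21*. *Cdk8* was divided by 14138 bases, against 2973 bases of its principal transcript. With principal lengths the highest members were *Med21* at 70.6, *Med10* at 54.9 and *Med22* at 45.5 CPM per kilobase before TMM scaling, and the lowest were *Med13* at 8.03, *Med29* at 7.05 and *Cdk8* at 3.90. The merged exons of all transcripts as the length gave yet another order, with *Med9* at 27.9, *Med28* at 27.1 and *Med16* at 26.2 CPM per kilobase the highest, *Med21*, *Med10* and *Med15* at ranks 16, 17 and 19, and *Cdk8* again the lowest. The highest exceeded the lowest 18.1-fold on the principal scale and 70.9-fold in FPKM. Across the 33 genes, which share libraries and counts on both scales, the Spearman correlation of the orders was 0.54.

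The kinase pair shows the effect of length plainly. *Cdk19* exceeded *Cdk8* by 7.22, 12.2 and 13.3 times in FPKM in the WT libraries, and by 1.52, 2.57 and 2.80 times per base of principal transcript. In KO the ratio per base was 1.74, 2.07 and 5.90, so it overlapped between groups on each scale. *Cdk19* was higher than *Cdk8* in all 6 libraries on both length scales.

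Members are spread over 17 chromosomes, and 2 lie on X. Of the merged exonic bases in GENCODE M21, over 10% overlap exons of another gene in 8 members. The shares were largest in *Med10*, *Med20* (28.4%) and *Med31* (26.3%). In 7 members another gene starts within 1000 bases in the opposite direction, such as *Bysl* at 90 bases from *Med20* and *Rpl7a* at 87 bases from *Med22*. How reads on shared bases were counted is not given in the sources used here, so values of these members are uncertain to that extent.

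Genes that work with Mediator were examined as well. Of 24 partner genes (cohesin, general kinases, elongation factors and H2B ubiquitin ligases), 22 were tested and 0 passed in edgeR, with 1 lower at an unadjusted p under 0.05, where 2.77% of all genes tested were. The groups did not overlap in 2 of the 22 (9.09%), beside 12.4% of all genes tested. *Rnf40*, a subunit of the ligase that ubiquitinates histone H2B and that Med23 is known to bind, was counted at 97.0, 114 and 137 CPM in WT and at 68.7, 76.3 and 68.0 CPM in KO. Every KO library was below every WT library. Its estimate was -0.71 on the log2 scale (standard error 0.25), with an unadjusted p of 0.0163 and an adjusted p of 0.69 in edgeR. *Rnf20*, its partner in the ligase, had an estimate of -0.10 with overlapping groups.

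*Ccnh*, the cyclin of the Cdk7 kinase in the general factor TFIIH, was the other partner gene without overlap and was chosen after its values were seen. It was counted at 132, 100 and 111 CPM in WT and at 72.3, 82.8 and 100 CPM in KO. KO replicate 3 and WT replicate 2 were nearly level, at 100.2 and 100.3 CPM. Its estimate on the log2 scale was -0.43 (standard error 0.25), with an adjusted p of 0.96 in edgeR. *Cdk7* had an estimate of 0.10.

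Of 12 activators and immediate early genes linked to Med23, 10 were tested and 1 passed, where 0.0719% of all genes tested did, and the groups did not overlap in 1 of the 10 (10%), beside 12.4% of all genes. *Egr1*, an immediate early gene driven by Elk and SRF factors, fell from 86.3, 72.1 and 102 CPM in WT to 6.48, 6.01 and 2.83 CPM in KO. All KO libraries were far below all WT libraries. On the log2 scale the difference was -4.08 (standard error 0.42) with an adjusted p of 0.0043 in edgeR, and with limma voom the fold stayed nearly as large (-3.98) but was not called (adjusted p of 0.064). The fall of *Egr1* was known from earlier results of these data and is no independent support for the list.

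The groups overlapped in every other gene tested from that list. *Fos* was counted at 51.5, 15.8 and 7.42 CPM in WT and 9.12, 2.18 and 18.6 CPM in KO, with both groups spread widely and a log2 fold change of -1.32 (95% interval -3.19 to 0.54), which leaves a large fall open. *Egr3*, at 1, 1 and 12 counts in WT and 0 in every KO library, did not pass the filter and was not tested. *Junb* and *Ier2* had estimates of 0.09 and -0.03. The factors themselves, *Elk1*, *Elk3*, *Elk4* and *Srf*, had estimates of 0.16, 0.25, 0.07 and 0.56, with overlapping groups in each.

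Some markers of other cell types moved with the groups in these libraries. The 12 skeletal muscle genes summed to 187, 145 and 359 CPM in WT and to 7.09, 13.3 and 8.30 CPM in KO. Of them, 10 were lower in every KO library, beside 6.15% of all genes tested. In edgeR 3 of the 11 tested passed the adjusted threshold, beside 0.0719% of all genes. *Myh3* was the most abundant, at 58.0, 42.5 and 102 CPM in WT and 0 in every KO library. The 10 granulocyte genes summed to 92.7, 144 and 100 CPM in WT and to 309, 310 and 581 CPM in KO, with *Ltf* and *Mmp8* at 0 in all libraries. *Prtn3* made up most of this, at 83.0, 141 and 86.5 CPM in WT and 305, 307 and 355 CPM in KO (adjusted p of 0.065 in edgeR). The others of the list summed to 9.64, 2.95 and 13.9 CPM in WT and 4.86, 3.28 and 225 CPM in KO, so they were raised in KO replicate 3 alone. The part of any marker list in the Mediator values was not tested.

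For the remaining cell types the full sums overlapped between groups, but 2 of these sums hid a shift beneath their most abundant gene. The 8 erythroid genes, led by *Hbb-bt*, summed to 46.7, 44.5 and 118 CPM in WT and 38.1, 30.9 and 67.0 CPM in KO. Without *Hbb-bt* they summed to 24.6, 17.9 and 77.6 CPM in WT and 10.9, 6.92 and 14.0 CPM in KO, lower in every KO library. The 7 macrophage genes, led by *Lyz2*, summed to 411, 540 and 587 CPM in WT and 492, 541 and 587 CPM in KO. Without *Lyz2* the sums were 16.4, 36.6 and 65.5 CPM in WT and 81.4, 81.4 and 112 CPM in KO, higher in every KO library. In each of these lists 1 of 4 genes tested had an unadjusted p under 0.05 in edgeR, beside 5.71% of all genes tested. In both, 0 passed the adjusted threshold, beside 0.0719% of all genes. The 7 B cell genes, led by *Cd79b*, summed to 44.3, 62.9 and 68.6 CPM in WT and 54.3, 63.9 and 75.3 CPM in KO, with *Pax5* and *Igll1* at 0 throughout. Defining genes of T cells were absent as well. The 7 T cell genes summed to at most 13.7 CPM in any library, with *Cd3d*, *Cd3e*, *Cd3g* and *Cd8a* at 0. The 7 genes of stroma and endothelium, led by *Pecam1*, summed to 60.7, 86.8 and 110 CPM in WT and 130, 105 and 92.1 CPM in KO.

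**Figure D5:**
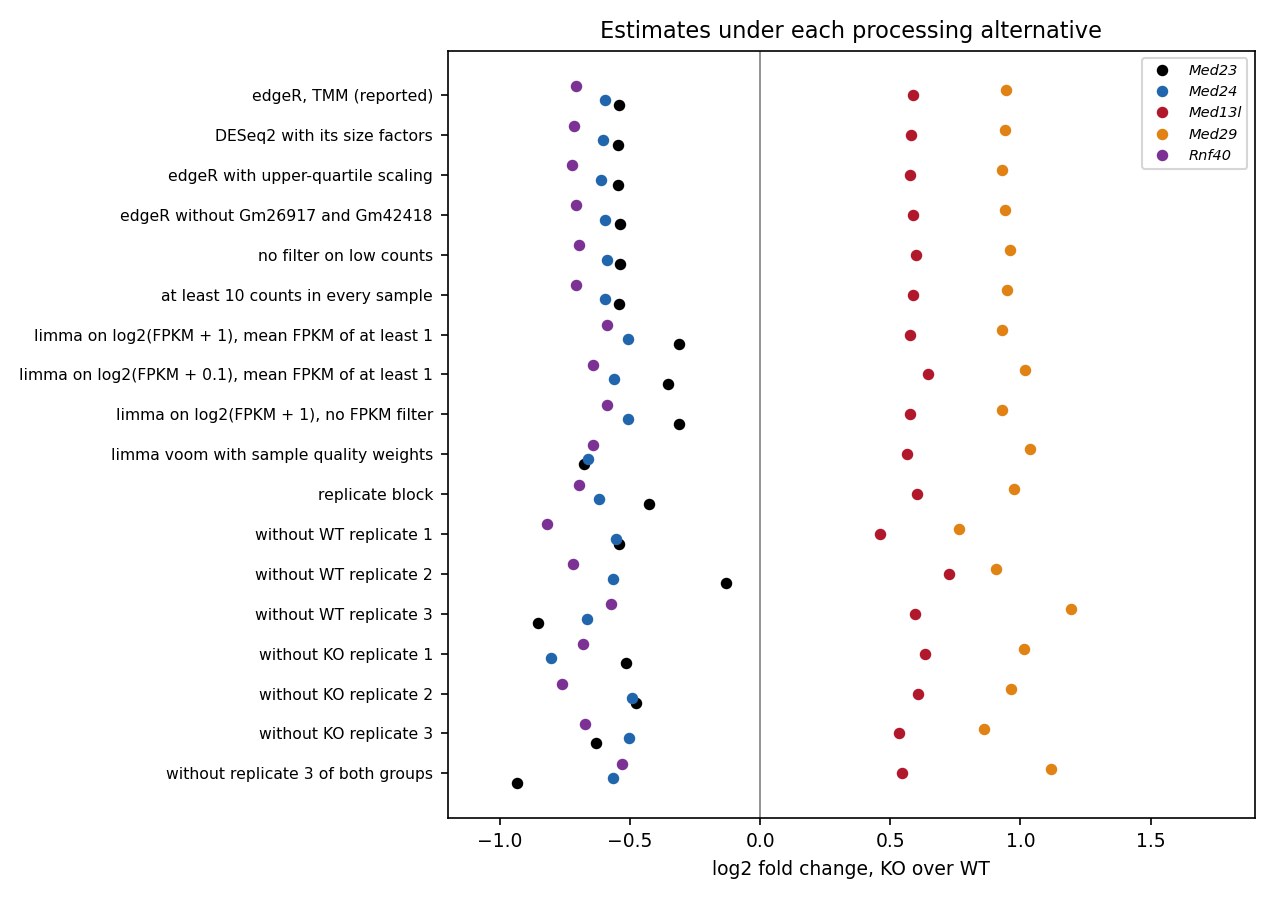
Log2 fold change of KO over WT for *Med23*, *Med24*, *Med13l*, *Med29* and *Rnf40* under the reported fit and each alternative setting, including each library left out. *Med23* moves between -0.93 and -0.13, while *Med13l* stays between 0.46 and 0.73.

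The plot of estimates by setting shows that the direction of these 5 genes was the same in every alternative run, whereas the adjusted p for each of them missed the threshold in all of these settings. *Med24* ran from -0.80 to -0.49, *Med29* from 0.76 to 1.19 and *Rnf40* from -0.82 to -0.53.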

How the data were processed

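The files deposited by the authors hold raw counts for each gene and FPKM. The submitters' processing notes name TopHat, HTSeq and mm10, with no version or strand setting. The labels name the SMART-Seq v4 kit and the methods a TruSeq kit. FPKM equalled the count divided by a length per gene and the column total, within 0.0703% over 12249 genes.

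Differences were fitted with edgeR 4.0.16 in R 4.3.3, with filterByExpr defaults, TMM scaling, robust quasi-likelihood tests and Benjamini-Hochberg adjustment at 0.05 over 12513 genes, 3 KO against 3 WT. The procedure was tested on simulated data. Single ratios were compared by exact two-sided permutation tests. Alternatives used DESeq2 1.42.0, limma 3.58.1 on log2 FPKM, voom, other filters and scalings, a replicate block and libraries left out.

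Named genes were *Med23*, *Med16*, *Med24*, kinase module genes, members with an unadjusted p under 0.05 or separated groups, the 3 highest and 3 lowest by WT FPKM, and partner genes with an unadjusted p under 0.05. Library values are also given for genes outside this rule, among them *Med14*, *Med18*, *Med19*, *Med20*, *Med22*, *Med25*, *Med26* and *Ccnh*. Members and lists were chosen with earlier results of these data known. Gene models came from GENCODE M21, which held 34267 of the identifiers. ATAC-seq was not used here.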

Additional observations from a re-analysis of the deposited data

How the results depend on the processing

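The number of members past the adjusted threshold was 0 in all 17 alternatives. Of 287 values under alternatives of the other named members, *Egr1* and *Rnf40*, 257 kept their direction and side of the threshold, 29 reversed, and *Egr1* missed the threshold with voom at a similar fold (-3.98, adjusted p of 0.064). Where no cause is named below, the cause was not tested. *Med23* kept its direction in all 17, from -0.93 to -0.13. All genes called numbered 120 with DESeq2, 15 with limma on log2(FPKM + 1) at a mean FPKM of at least 1, 0 with voom, and 5 to 11 with a library left out. Over the partner and activator lists together, 0 genes were called with voom and 1, *Egr1*, in the reported fit.

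Members at an unadjusted p under 0.05 numbered 2 with DESeq2, upper-quartile scaling, unfiltered log2(FPKM + 1) and voom, and 0 to 3 with a library left out, beside 4.85 to 8.03% of all genes over the settings; members with separated groups numbered 5 to 11, and 20.4 to 23.7% of all genes tested were separated with a library left out, against 12.4% with all 6. The member median was 0.16 on log2(FPKM + 0.1). With a library left out, the member median ran from 0.058 to 0.16, the kinase median from 0.019 to 0.21, the tail median from -0.25 to 0.25, the head from 0.14 to 0.52 and the middle from -0.15 to 0.061; without replicate 3 of both groups the head median was 0.16.

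*Med8* ran from 0.13 without KO replicate 2 to 0.88 without replicate 3 of both groups, and *Med16* from 0.0068 without WT replicate 1 to 0.36 without WT replicate 3. *Med17* ran from 0.30 without WT replicate 2 to 0.70 without replicate 3 of both groups, and *Med15* fell to 0.10 without the latter. *Med4* reversed to 0.0015 without *Gm26917* and *Gm42418*, 0.0078 without a filter, 0.00040 at 10 counts in every sample, 0.060 on log2(FPKM + 1) with and without the filter, 0.062 on log2(FPKM + 0.1), and ran from -0.12 to 0.076 with a library left out. *Med10* reversed to 0.044 in all 3 FPKM settings, 0.12 with voom, 0.15 without replicate 3 of both groups, and ran from -0.16 to 0.28 with a library left out. *Cdk8* reversed to -0.0070 with voom. Without replicate 3 of both groups *Med12* was -0.024 and *Ccnc* -0.012. With a library left out, *Cdk8* ran from -0.46 to 0.36, *Cdk19* from -0.034 to 0.48, *Med12l* from -0.077 to 0.51, *Med12* from -0.041 to 0.21 and *Med13* from -0.35 to 0.14.

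Same-numbered samples had correlations of 0.170, 0.0324 and 0.170 between their deviations, and every sample but WT replicate 2 correlated best with its own number. A pairing is not stated in the sources used here, and the reported fit did not take the numbers as pairs. Whether same-numbered samples share a factor was not tested. With the replicate block 5 genes of all tested and 2 members at an unadjusted p under 0.05 were found, *Med4* was 0.012 and *Cdk8* was -0.071.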
